A study of Mus musculus with 2 samples.

Results

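Transcripts of 10 genes that act in late erythroblasts and reticulocytes were examined in niche cells sorted from the bone marrow of mice after marrow transplantation with or without acute graft-versus-host disease (aGVHD). The genes were Bnip3l, Trim58, Xpo7, Fbxo7, Ube2o, Ube2l6, Bpgm, Pklr, Car1 and Car2, taken by symbol from a deposited table of 54532 genes, in which each had 1 row. Recipients were female CB6F1 mice, irradiated with 2 doses of 4.0 Gy and injected 4 hours later with 5000000 nucleated marrow cells of B6.SJL mice. The BMT library came from mice so treated. The aGVHD_V library came from mice that also received 60000000 spleen cells of female C57BL/6 mice to bring about aGVHD. What the V stands for, ages, the time of sampling and the number of mice behind each library are not given in the labels. For both libraries stromal cells were sorted after depletion of cells labelled for CD45, lineage antigens or CD71, with Calcein AM and DAPI to leave out dead cells. The title speaks of single cells, but the table holds 1 value per gene and library.

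In the last steps of red cell formation the erythroblast condenses and expels its nucleus, and the resulting reticulocyte clears its mitochondria, ribosomes and other organelles while hemoglobin accumulates. Mitophagy receptors, ubiquitin-conjugating enzymes and ubiquitin ligases carry out much of this clearance. The mature cell then lives on glycolysis, tunes the oxygen affinity of hemoglobin with bisphosphoglycerate and hydrates carbon dioxide with carbonic anhydrases. CD71, the transferrin receptor used in the depletion, is abundant on erythroblasts and is lost as reticulocytes mature.

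Levels are given as FPKM, which relates the fragments of a gene to its length and to a library size that the authors scaled. Where a pair of values follows a gene without further words, the first is from BMT and the second from aGVHD_V. The recovered reads numbered 10869191 for BMT and 11299834 for aGVHD_V. Genes with any reads numbered 15477 in BMT and 12310 in aGVHD_V. A gene that was low in BMT may therefore lack reads in aGVHD_V without being absent from the cells. With 1 library per group no difference has a replicate check, and no test between the groups was made. A fold is the ratio of FPKM in the aGVHD_V library to that in the BMT library, and its 95% interval covers counting error only. For the interval, the reads were first divided by the read number that detected genes had most often (14 for BMT and 44 for aGVHD_V), in case 1 starting molecule gave many reads. A difference is log2(FPKM + 1) in aGVHD_V minus that in BMT, and a size of 1 or more, up or down, is called at least 2-fold. In such bulk libraries fewer cells of a type and less RNA per cell cannot be told apart.

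The libraries held both stromal and red cell transcripts. All 14 stromal genes on a fixed list were lower by at least 2-fold in aGVHD_V, where their FPKM summed to 34.4 against 740.5 in BMT, and 1 of them, Lepr, had no reads there. Of 10 endothelial genes 4, Cdh5 among them, had no reads in aGVHD_V, 7 were at least 2-fold lower and 3 lay within 2-fold. Late erythroid markers were abundant in both, of which Alas2 and Slc4a1 are given here and were named after their values were seen. Alas2, the first enzyme of heme synthesis in red cells, was at an FPKM of 604 in BMT and 1601 in aGVHD_V, and Slc4a1 (the band 3 anion exchanger) had 543 and 1106. Tfrc, which encodes CD71, was at 160.1 and 269 despite the depletion.

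All 10 maturation genes had an FPKM of 10 or more and at least 608 reads in each library. Car2 was the most abundant in both libraries, at an FPKM of 778 in BMT and 1112 in aGVHD_V. Car1 came next in BMT, at 488 and 567, while Ube2l6, at 207 and 574, was beside it in aGVHD_V. Bpgm followed with 159.5 and 431. A middle group was formed by Pklr (66.8 and 50.3), Bnip3l (62.9 and 128.8) and Ube2o (62.8 and 107.1). The lowest were Trim58 (22.9 and 38.9), Xpo7 (20.5 and 36.2) and Fbxo7 (12.7 and 18.4). Car2 was thus 61.02-fold above Fbxo7 in BMT and 60.4-fold above it in aGVHD_V. The top and the bottom of the order were the same in both, whereas Pklr stood at place 5 in BMT and at place 7 in aGVHD_V.

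Some neighbours in this order did not differ beyond counting error. In the BMT library these were Pklr against Bnip3l (ratio 1.06, interval 0.868 to 1.3), Bnip3l against Ube2o (1.0, 0.834 to 1.2) and Trim58 against Xpo7 (1.12, 0.795 to 1.54). In the aGVHD_V library they were Ube2l6 against Car1 (1.01, 0.834 to 1.23), Bnip3l against Ube2o (1.2, 0.934 to 1.55), Pklr against Trim58 (1.29, 0.741 to 2.32) and Trim58 against Xpo7 (1.07, 0.645 to 1.7). The deposited lengths equal the merged exons of all annotated transcripts in GENCODE M21 for all 10 genes. They are up to 1.62 times, for Bpgm, the length of the transcript with the longest coding sequence. Per length of that transcript Bpgm stood at 258 in BMT, close to Ube2l6 at 264 and below Car1 at 510.2. In aGVHD_V Bpgm was at 696 and Ube2l6 at 735 on this scale, both above Car1 at 593.

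**Figure D1:**
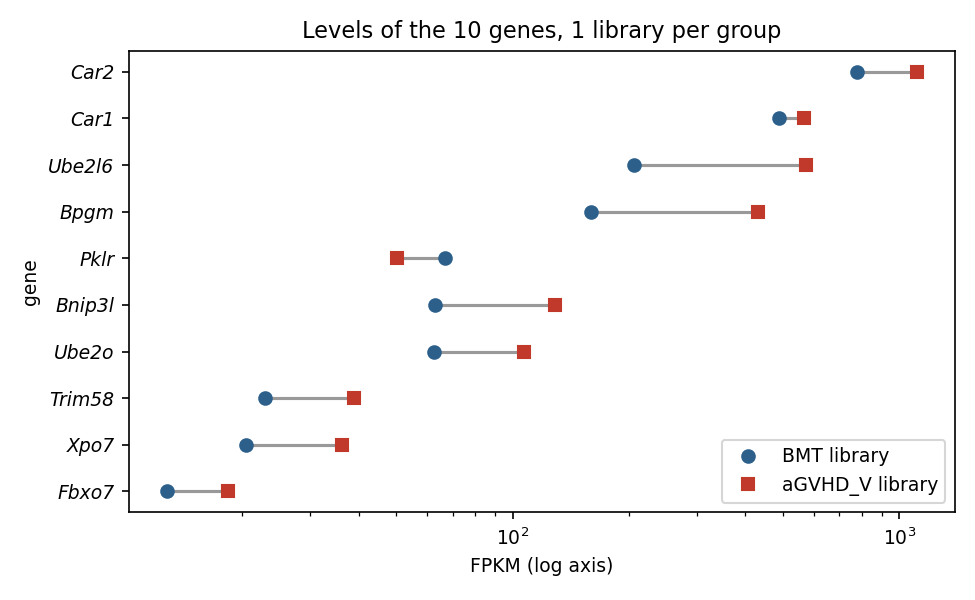
FPKM of each gene (horizontal, log axis) in the BMT library (circles) and the aGVHD_V library (squares), 1 library per group, joined by a line. Pklr is the only gene whose square lies to the left of its circle, from 66.8 to 50.3, and the lines of Ube2l6 and Bpgm are the longest.

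In 9 of the 10 genes the FPKM was higher in the aGVHD_V library, and the exception was Pklr. Ube2l6, Bpgm and Bnip3l were at least 2-fold higher, none was at least 2-fold lower and 7 lay within 2-fold. Among the 12942 genes that reached an FPKM of 1 in a library, called measured here, 8.65% were at least 2-fold higher, 19.4% at least 2-fold lower and 46.1% above 0. Among the 5438 genes that reached an FPKM of 10, as all members did, these shares were 7.08%, 7.63% and 56.9%. The median difference over the 10 genes was 0.75, beside -0.07 over the 12942 genes and 0.09 over the 5438. The counting interval of the fold lay above 1 for 6 genes and included 1 for Trim58, Fbxo7, Pklr and Car1.

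These directions depended on the scale chosen for the libraries. The 4 adult globin genes made up 12.6% of the FPKM sum of BMT and 31.9% of that of aGVHD_V. Giving both libraries an equal FPKM sum of 1000000 moved the median measured gene by -0.55. The median difference of the 10 genes was then 0.19, no gene was at least 2-fold different, and Car1 (-0.36), Car2 (-0.0626) and Fbxo7 (-0.0464) lay below 0 beside Pklr (-0.98). With library sizes of all recovered reads, Car1 was at -0.0259 and Pklr at -0.64, and the other 8 genes stayed above 0. Of all genes tested 19.6% were above 0 with an equal FPKM sum, and 32.8% with library sizes of all reads. Ube2l6, Bpgm and Bnip3l were higher, and Pklr lower, on each of the 7 scalings planned or added. Ratios between genes of the same library do not depend on this scale and are given below for that reason.

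**Figure D2:**
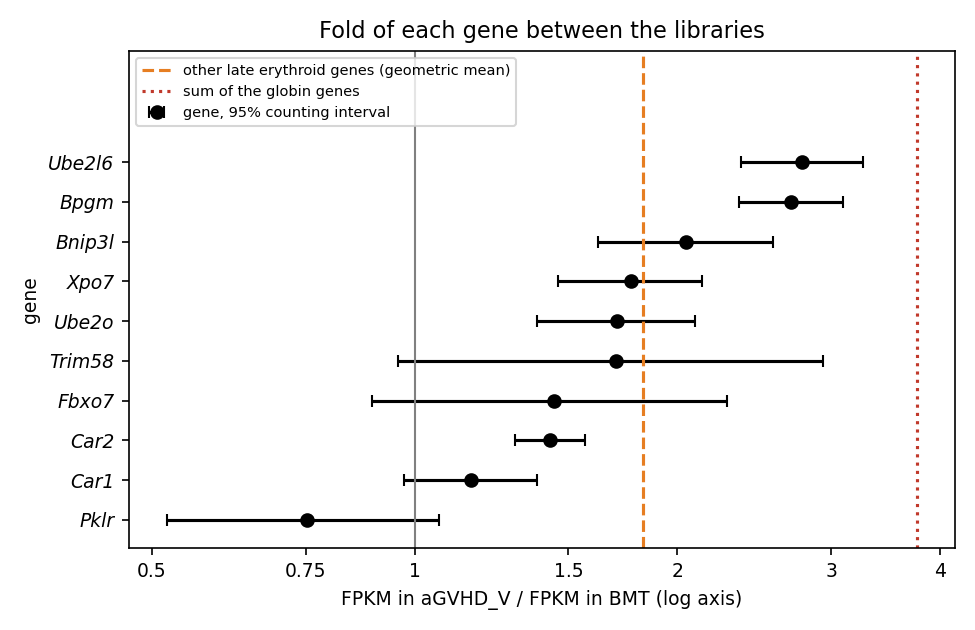
Fold of FPKM between the libraries (horizontal, log axis) for each gene, with bars for the 95% counting interval. The solid line marks 1, the dashed line the 1.82-fold of the other late erythroid genes and the dotted line the 3.77-fold of the summed globin genes, and every interval ends to the left of the dotted line.

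Bnip3l encodes NIX, the outer membrane receptor that hands mitochondria of reticulocytes to autophagosomes. The gene (ENSMUSG00000022051) spans 66985239 to 67008877 on the minus strand of chromosome 14 (GRCm38, as for all positions here), with 6 exons in its main coding transcript. It had 2942 reads in BMT and 5299 in aGVHD_V, an FPKM of 62.9 and 128.8, which is 2.05-fold higher (interval 1.62 to 2.58). A larger difference was seen for 8.23% of measured genes. Of 20 other measured genes of mitophagy and organelle clearance, Pink1 was at least 2-fold higher, Map1lc3a and Fundc1 were at least 2-fold lower and 17 lay within 2-fold. Their median difference was 0.15, and -0.39 with an equal FPKM sum.

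Pink1, the kinase that marks damaged mitochondria, was at an FPKM of 33.4 and 72.2, 2.16-fold higher (interval 1.47 to 3.15). The ratio of Bnip3l to Pink1 was 1.88 in BMT and 1.78 in aGVHD_V, a change of 0.947 (0.599 to 1.47) that lay within counting error. The autophagosome protein gene Map1lc3a had an FPKM of 27.4 and 7.15, and Fundc1, another mitophagy receptor, 5.29 and 1.59, both on fewer than the 132 reads that were needed in the aGVHD_V library to give a fold. Sqstm1, an autophagy cargo receptor and the most abundant gene of the list by its mean over both libraries, was at 97.9 and 105.1. Bnip3, the close relative of Bnip3l, was low in both (FPKM 1.57 and 1.61, named after its values were seen).

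Of the 10 genes, Ube2o, Ube2l6, Fbxo7 and Trim58 act in ubiquitin transfer, and Ube2l6 had the highest fold of these. It encodes a conjugating enzyme (E2) that can carry ubiquitin or the ubiquitin-like modifier ISG15, and it is inducible by interferon. The gene (ENSMUSG00000027078) spans 84798828 to 84810335 on the plus strand of chromosome 2. It had 5000 and 12220 reads, an FPKM of 207 in BMT and 574 in aGVHD_V, and was 2.78-fold higher (interval 2.37 to 3.26), which was also the highest fold of all 10. 4.1% of measured genes had a larger difference. Ube2l3, its closest relative among the listed E2 genes, was at 18.3 and 17.98 (named after its values were seen). The ratio of Ube2l6 to Ube2l3 was therefore 11.3 in BMT and 31.9 in aGVHD_V, a change of 2.83 (1.79 to 4.83). None of 11 other E2 genes was at least 2-fold different, and their median difference was 0.1, or -0.46 with an equal FPKM sum.

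All 6 genes of ISG15 conjugation, of which Ube2l6 is one, had a difference above 0, with a median of 0.34 that became -0.14 with an equal FPKM sum. Isg15, the modifier itself, was at an FPKM of 190.01 in BMT and 465 in aGVHD_V, 2.45-fold higher (interval 1.83 to 3.25). The ratio of Ube2l6 to Isg15 was 1.09 and 1.24, a change of 1.14 (0.818 to 1.58) that included 1. The other genes of the list, Uba7 (30.7 and 34.8), Trim25 (22.7 and 27.3), Usp18 (10.2 and 13.1) and Herc6 (2.0 and 2.84), lay within 2-fold. Uba7, Trim25 and Usp18, which encode the activating enzyme, a ligase and the protease of the pathway, were named after their values were seen. The part of ISG15 pathway activity in the Ube2l6 difference was not tested.

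Ube2o encodes a large enzyme that joins conjugating and ligase activity and directs ribosomal proteins and unassembled globin to the proteasome in reticulocytes. The gene (ENSMUSG00000020802) spans 116537740 to 116581447 on the minus strand of chromosome 11. Its FPKM was 62.8 in BMT and 107.1 in aGVHD_V on 4026 and 6036 reads, 1.71-fold higher (interval 1.38 to 2.1). Ube2l6 stood 3.29-fold above Ube2o in BMT and 5.36-fold above it in aGVHD_V, a change of 1.63 (1.26 to 2.14). Ube2h, the partner of the CTLH ligase in erythroblasts, was at 31.9 and 48.02 (named after its values were seen). The ratio of Ube2o to Ube2h changed by 1.13 (0.761 to 1.66), which included 1.

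The CTLH ligase list, UBE2H included, held no gene with a 2-fold difference among 10, and a median of 0.37 that became -0.14 with an equal FPKM sum. Its members went both ways. Ranbp10, a subunit, was 1.85-fold higher (53.5 and 98.7, interval 1.51 to 2.26), whereas Rmnd5a, a catalytic subunit, was at 14.6 and 7.31 (fold 0.501, interval 0.249 to 0.921). Maea, the other catalytic subunit, which also acts in the erythroblastic island, was at 40.05 and 22.98. Its fold of 0.574 had an interval (0.306 to 1.002) that included 1.

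Fbxo7 encodes the substrate adaptor of an SCF ubiquitin ligase. The gene (ENSMUSG00000001786) spans 86021972 to 86051873 on the plus strand of chromosome 10. It had 955 reads in BMT and 1213 in aGVHD_V, an FPKM of 12.7 and 18.4, and its fold of 1.44 had an interval (0.893 to 2.28) that included 1. Its ligase partners were all within 2-fold. Skp1a, the linker that binds the F-box, was at 45.1 and 63.6, the scaffold Cul1 at 36.4 and 33.9 and the RING subunit Rbx1 at 13.2 and 13.4. The ratio of Fbxo7 to Skp1a was 0.282 and 0.289, a change of 1.02 (0.55 to 1.96).

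Trim58 encodes an erythroid ubiquitin ligase that acts on dynein, the motor that moves the nucleus, before enucleation. The gene (ENSMUSG00000037124) spans 58640465 to 58652404 on the plus strand of chromosome 11 and has 1 annotated transcript of 6 exons. It had the fewest reads of the 10 genes, 608 in BMT and 909 in aGVHD_V, an FPKM of 22.9 and 38.9. Its fold of 1.7 had an interval (0.956 to 2.93) that included 1. Trim10, another erythroid member of the TRIM family (named after its values were seen), was at 110.3 and 245. The ratio of Trim58 to Trim10 changed by 0.765 (0.425 to 1.43), within counting error.

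Xpo7 encodes exportin 7, a nuclear export receptor that is needed for nuclear condensation in terminal erythroblasts. The gene (ENSMUSG00000022100) spans 70654246 to 70766628 on the minus strand of chromosome 14, with 28 exons in its main coding transcript. Its FPKM was 20.5 in BMT and 36.2 in aGVHD_V on 4718 and 7341 reads, 1.77-fold higher (interval 1.46 to 2.14). Dok2, which overlaps it on the opposite strand, had 282 and 277 reads, and no source used here says whether strand was used in counting. All 6 other measured exportins were within 2-fold, with a median difference of -0.11 (-0.67 with an equal FPKM sum). The general exportin Xpo1 was at 26.1 and 29.05, and Cse1l, which returns importin alpha to the cytoplasm, was at 23.2 and 26.04. Xpo7 was thus below Xpo1 in BMT (ratio 0.784) and above it in aGVHD_V (1.25), a change of 1.59 (1.08 to 2.32). The order of the 2 genes rests on the deposited length of Xpo7, 19005 bases, whereas the change does not. By reads Xpo7 was above Xpo1, which had 2274 and 2224, in both libraries.

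Of 14 further genes of enucleation 2 were higher by at least 2-fold and 0 lower, with a median of 0.13 that became -0.44 with an equal FPKM sum. Plek2, an actin-linked protein of erythroblasts, was at an FPKM of 13.3 and 33.1, 2.49-fold higher (interval 1.11 to 5.39). Hdac6, a deacetylase, was at 1.32 and 3.87 on 93 and 240 reads, with an interval (0.764 to 10.7) that included 1. Vim (vimentin), the most abundant gene of the list by its mean over both libraries and one that stromal cells also express, was at 103 and 98.7.

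The 2 genes of red cell glycolysis differed in direction on the deposited scale. Bpgm encodes bisphosphoglycerate mutase, which makes the compound that lowers the oxygen affinity of hemoglobin. The gene (ENSMUSG00000038871) spans 34476207 to 34505613 on the plus strand of chromosome 6. It had 6942 reads in BMT and 16477 in aGVHD_V, an FPKM of 159.5 and 431, and was 2.7-fold higher (interval 2.35 to 3.09). Pklr encodes the pyruvate kinase of red cells and liver, the last enzyme of glycolysis. The gene (ENSMUSG00000041237) spans 89136142 to 89146784 on the plus strand of chromosome 3. It had 2621 and 1734 reads, an FPKM of 66.8 and 50.3, and its fold of 0.753 had an interval (0.52 to 1.07) that included 1.

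The ratio of Bpgm to Pklr was 2.39 in BMT and 8.57 in aGVHD_V, a change of 3.59 (interval 2.47 to 5.38). This was the farthest apart of the 3 pairs compared within a role among the 10 genes, the others being Ube2l6 with Ube2o (1.63) and Car2 with Car1 (1.23). In all 12 pairs were compared, chosen after the values were seen, and the interval of the change included 1 for 6. Pgam1, the general phosphoglycerate mutase, was at 52.2 and 38.7, so that the ratio of Bpgm to Pgam1 was 3.05 and 11.1, a change of 3.64 (2.12 to 6.73). Pkm, the pyruvate kinase of most other cells, was at 113.6 in both libraries. The ratio of Pklr to Pkm was 0.588 and 0.442, a change of 0.753 (0.488 to 1.12). Pgam1 and Pkm were named after their values were seen. Of 17 other measured glycolytic genes 16 lay within 2-fold, with a median difference of 0.17 (-0.4 with an equal FPKM sum). The exception was the muscle mutase Pgam2 at 4.12 and 15.3 on 42 and 137 reads (interval of the fold 0.514 to 27.4). Ldhb (6.3 and 2.69) and Gapdh (4.29 and 1.72) lay close to the threshold, with differences of -0.99 and -0.96. Both had fewer than the 132 reads needed in aGVHD_V to give a fold. Hcn3, an ion channel gene that overlaps Pklr on the opposite strand, had 123 and 47 reads.

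Sequence upstream of the start sites is shown for Trim58, Pklr and Ube2l6. Trim58 and Pklr carry the same motif but differed in direction on the deposited scale, although the counting interval of each included a fold of 1. Ube2l6 had the highest fold. The 250 bases before each RefSeq transcript start (GRCm38.p6, plus strand) were searched on both strands for GATAA, the core bound by GATA factors, and for CCNCNCCC, bound by KLF1 and other factors of its family. No match of one overlapped a match of the other. GATAA was found in 22.6% and CCNCNCCC in 45.9% of 32851 promoters of this length. Capitals mark a match. The windows are chr11:58640215-58640464 for Trim58, chr3:89135892-89136141 for Pklr and chr2:84798578-84798827 for Ube2l6.
Trim58: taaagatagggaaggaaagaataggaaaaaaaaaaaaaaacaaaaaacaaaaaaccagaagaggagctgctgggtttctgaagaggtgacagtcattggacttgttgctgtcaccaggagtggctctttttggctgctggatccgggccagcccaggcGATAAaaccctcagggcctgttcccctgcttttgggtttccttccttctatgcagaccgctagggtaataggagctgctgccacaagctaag
Pklr: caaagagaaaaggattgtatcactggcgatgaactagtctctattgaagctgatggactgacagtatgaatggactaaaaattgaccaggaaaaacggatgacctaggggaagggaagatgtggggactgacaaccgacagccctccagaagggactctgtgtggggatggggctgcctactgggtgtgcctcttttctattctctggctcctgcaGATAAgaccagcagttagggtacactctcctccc
Ube2l6: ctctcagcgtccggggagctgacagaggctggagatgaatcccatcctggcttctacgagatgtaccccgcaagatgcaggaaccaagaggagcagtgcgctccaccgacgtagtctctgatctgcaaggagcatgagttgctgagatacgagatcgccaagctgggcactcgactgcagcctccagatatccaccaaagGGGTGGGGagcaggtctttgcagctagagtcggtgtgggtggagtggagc

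Trim58 had 1 GATAA, 92 to 88 bases before its start, and Pklr had 1, 34 to 30 bases before its start. Ube2l6 had no GATAA and 1 match to CCNCNCCC on the minus strand, 50 to 43 bases before its start. The RefSeq table gave 7 starts for 5 of the 10 genes, and those not shown were a second start of Pklr, 2 starts of Fbxo7 and 1 start of Bpgm. Neither motif was found before the second Pklr start or before those of Fbxo7, and Bpgm had 1 CCNCNCCC on the minus strand, 110 to 103 bases before its start. The second Pklr start, at 89136623, serves the liver form of the enzyme, and the gene-level value of Pklr does not separate its transcripts. A match of letters does not show that a factor was bound.

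Carbonic anhydrases turn carbon dioxide and water into bicarbonate and protons. Car2 (ENSMUSG00000027562, chromosome 3, 14886273 to 14900770, plus strand) had 22840 reads in BMT and 28711 in aGVHD_V, an FPKM of 778 and 1112. It was 1.43-fold higher (interval 1.3 to 1.57) but lower with an equal FPKM sum (a difference of -0.0626). Car1 (ENSMUSG00000027556, chromosome 3, 14766216 to 14808368, minus strand) had 7387 and 7543 reads and an FPKM of 488 and 567, and its fold of 1.16 had an interval (0.972 to 1.38) that included 1. The ratio of Car2 to Car1 was 1.59 in BMT and 1.96 in aGVHD_V, a change of 1.23 (1.01 to 1.51).

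The pair lies in a cluster of 4 carbonic anhydrase genes that spans 259044 bases, and its neighbours were low. Car3, a gene of fat and muscle cells that lies between Car1 and Car2, had 645 reads in BMT and 15 in aGVHD_V, an FPKM of 18.6 and 0.491. Car13, at the other end of the cluster, had 81 reads and none (2.91 and 0). Of the 16 listed carbonic anhydrases 7 were measured, and 10 were without reads in BMT and 11 in aGVHD_V. Car4, which anchors in membranes, was at 0 and 1.48 on 31 reads. Car2 is also expressed in osteoclasts, which use it to acidify bone. Of 10 osteoclast genes 4 were measured, and their summed FPKM was 119.1 in BMT and 156.1 in aGVHD_V, most of it from Mmp9 (82.2 and 97.2), which neutrophils also express. Acp5 was 2.75-fold higher (20.1 and 55.4, interval 1.6 to 4.66), Nfatc1 was at 2.76 and 3.61 and Ctsk at 13.7 and 0. Of the 10 osteoclast genes 5 were without reads in BMT and 7 in aGVHD_V. Calcr, Oscar, Dcstamp and Ocstamp were among these in both libraries (named after their values were seen). The part of osteoclasts in the Car2 difference was not tested.

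Relative to globin transcripts, all 10 genes were lower in aGVHD_V, as were 94.2% of the 12942 measured genes and 97.6% of the 5438 that reached an FPKM of 10, so that the count does not set the 10 apart. The 4 adult globin genes, alpha and beta pairs whose copies are nearly identical, summed to an FPKM of 43018 in BMT and 162021 in aGVHD_V, 3.77-fold higher. Per 1000 FPKM of globin, Ube2l6 had 4.8 in BMT and 3.54 in aGVHD_V and Bpgm 3.71 and 2.66, the smallest changes (1.35-fold and 1.4-fold lower). Car2 had 18.1 and 6.86, Bnip3l 1.46 and 0.795, and Car1 11.3 and 3.5. Pklr had 1.55 and 0.31, 5.0-fold lower, the largest change of the 10. This comparison does not depend on how the libraries were scaled, but it rests on the 4 globin genes.

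Other late erythroid genes, apart from globins, gave a closer reference. All 25 late erythroid genes with a row, of 26 listed, were higher in aGVHD_V, 11 of them at least 2-fold, and 21 of them were still higher with an equal FPKM sum. Their median difference was 0.88, and 0.31 with an equal FPKM sum. The 21 without globins had a geometric mean FPKM of 97.7 and 178.2, 1.82-fold higher. Relative to it, Ube2l6 was 1.52-fold, Bpgm 1.48-fold and Bnip3l 1.12-fold higher in aGVHD_V. The other 7 genes were lower. Of measured genes 13.7% were higher and 86.3% lower relative to this mean, and of the genes that reached an FPKM of 10 these shares were 9.99% and 90%. Xpo7 was at 0.97 of its BMT value, Ube2o at 0.934, Trim58 at 0.932, Fbxo7 at 0.792, Car2 at 0.783, Car1 at 0.636 and Pklr at 0.412. The counting intervals of the folds of Bnip3l, Xpo7, Ube2o, Trim58 and Fbxo7 held this 1.82-fold.

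**Figure D3:**
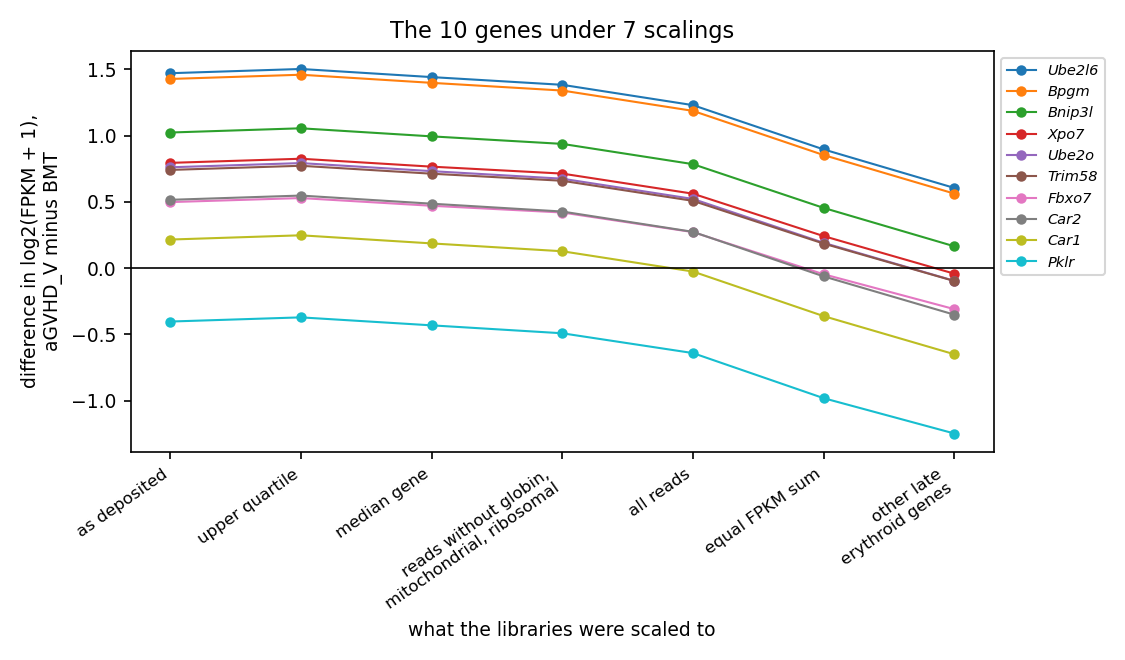
Difference in log2(FPKM + 1), aGVHD_V minus BMT (vertical), of each gene under 7 scalings (horizontal, in no numeric order), 1 line per gene. The lines run nearly parallel, Ube2l6, Bpgm and Bnip3l stay above 0 and Pklr stays below 0 throughout, and Car1 crosses 0 first.

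The list of early erythroid genes had a smaller median difference of 0.25 (-0.32 with an equal FPKM sum), and 7 of 13 were above 0. It is mixed and does not mark an early stage alone. Tfrc is on it, and the CD71 that Tfrc encodes is abundant on erythroblasts. Gfi1b, an erythroid repressor, was 2.14-fold higher (53.1 and 113.7, interval 1.48 to 3.07) and Nfe2 1.71-fold higher (62.01 and 106.2, interval 1.29 to 2.26). Myb, a transcription factor of progenitors, was at 14.2 and 6.86 (fold 0.482, interval 0.26 to 0.832). The 10 maturation genes, at a median of 0.75, lay between this list and the late erythroid one.

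Markers of other cells also differed between the libraries. Summed FPKM was 92.96 and 20.8 for 10 endothelial genes, and 81.2 and 1.5 for 9 B-lineage genes, of which 7 were without reads in aGVHD_V. Those 7 had from 22 (Ms4a1) to 441 (Rag1) reads in BMT, and these 2 genes were named after their values were seen. For 12 monocyte and macrophage genes it was 314 and 294, but the median difference of the 12 was -0.60 (-1.20 with an equal FPKM sum) and 3 of them were above 0. For 13 neutrophil genes it was 15933 and 21566, with a median difference of 0.28 and 11 above 0, which became -0.29 and 3 above 0 with an equal FPKM sum. For 9 T and NK cell genes it was 67.01 and 145.6, with a median difference of 0.79 over the 8 measured (0.47 with an equal FPKM sum). Most of both sums came from Nkg7 (35.4 and 72.2) and Gzmb (13.8 and 41.3), whose intervals lay above 1. Cd3e, Cd3d, Cd4 and Gzma were below the 132 reads needed in aGVHD_V to give a fold. The intervals of Cd3g and Cd8a included 1. Of these genes Cd3e, Cd4, Gzma, Cd3g and Cd8a were named after their values were seen.

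The sum of 11 megakaryocyte and platelet genes was 93.04 and 284, most of the increase from Pf4 (platelet factor 4), at 28.4 and 190.6. The list went both ways, but its lower genes had few reads. Of its 9 measured genes 5 were at least 2-fold higher, among them Pf4 and the integrin gene Itga2b (7.38 and 20.8), and 3 at least 2-fold lower, among them Gp1ba (1.67 and 0), while 1 lay within 2-fold. The 3 lower genes, Gp1ba (55 and 0 reads), Tubb1 (145 and 47) and Treml1 (19 and 0), were below the 132 reads needed in aGVHD_V to give a fold. Among the 5 higher genes the intervals of Gp9 and Gp5 included 1. Tubb1, Treml1, Gp9 and Gp5 were named after their values were seen. The part of these other cells in the differences of the 10 genes was not tested.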

How the data were processed

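The deposited table gives 1 value per gene for the BMT and the aGVHD_V library, which were assigned from their titles. Another 1 column of values fits no label of a sample and was left out. The authors deposited FPKM, as the file names its values. For the making of these values edgeR 3.18.1 and the builds GRCm38 and mm10 stand in the submitters' processing notes, while aligner, counter and use of strand are not given in the sources read here. FPKM times the deposited gene length gave whole multiples of 1 step per library for 100.0% of values above 0 (tolerance 0.05), so reads were recovered. The authors' library sizes were 1.116 and 0.944 times these reads.

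Intervals of folds are exact conditional binomial (Clopper-Pearson), and those of ratio changes are exact conditional odds-ratio intervals, both on reads divided by the modal read number (window of 7 values, from 4 reads). They cover counting error only. Folds were given for genes with at least 3 such counts in each library (42 and 132 reads). Recovery of reads and the intervals of folds were tested on simulated data, with reads that were not divided by a modal number. The division itself and the intervals of ratio changes were not tested in this way. The pseudocount was 1, and measured genes reached an FPKM of 1 in a library. Named were the 10 members and, from 19 further lists, up to 3 measured genes with the largest absolute difference and the one with the highest mean FPKM; other genes are marked as named after their values were seen, except neighbours and overlapping genes, which were taken by position. Of several rows for 1 symbol, that with most reads stood for it. The members and lists were chosen with earlier results of these data known. Alternatives were 10 planned settings and 1 chosen after seeing the data. Python 3.11.15, numpy 2.4.6, pandas 2.3.3 and scipy 1.17.1 were used.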

Additional observations from a re-analysis of the deposited data

How the results depend on the processing

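Of 110 values of single genes under 11 alternatives, 78 stayed within the counting interval, 19 moved out of it in the same direction and 13 reversed. Leaving out the FPKM filter or raising its minimum to 5 could not move these values, because neither changes the FPKM of a gene. The values under both settings are among the 78. A changed pseudocount could not reverse a direction. All values that moved out or reversed did so under a changed scale of the libraries. Ube2l6, Bpgm, Bnip3l and Pklr reversed under none of these changes of scale. With both libraries at an equal FPKM sum of 1000000, Car1 was at -0.362, Car2 at -0.0626 and Fbxo7 at -0.0464, the median over the 10 genes was 0.19, 0 genes were at least 2-fold higher and 6579 of all genes lay outside 2-fold (900 higher, 5679 lower). With aGVHD_V alone brought to the sum of BMT these were -0.362, -0.0625 and -0.0441, with a median of 0.18 and again 0 genes, and 547 genes were higher and 3685 lower. With library sizes of all recovered reads Car1 was at -0.0259, and 856 genes were higher and 3078 lower. With the aGVHD_V library divided by the mean fold of the non-globin late erythroid genes, chosen after seeing the data, the median was -0.10, 0 genes were at least 2-fold higher and 1 (Pklr, -1.25) at least 2-fold lower. Car1 was then at -0.65, Car2 at -0.35, Fbxo7 at -0.31, Trim58 at -0.10, Ube2o at -0.10 and Xpo7 at -0.0422, and 423 genes were higher and 4849 lower. A pseudocount of 5 left 859 genes outside 2-fold (356 higher, 503 lower) and an FPKM minimum of 5 left 1475 (616 higher, 859 lower), against 3631 (1119 higher, 2512 lower) as reported. Bnip3l, at 1.02, lay at the threshold, and the count at least 2-fold higher was 2 with a pseudocount of 5, centring on the median gene, library sizes of all reads or library sizes that leave out hemoglobin, ribosomal protein and mitochondrial genes. No paired analysis was possible because each group has 1 library. Depth limited Trim58, Fbxo7 and Pklr most, whose intervals included no difference.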
